A study of Homo sapiens with 6 samples.

Results

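The genes for subunits of the oxidative phosphorylation complexes were examined in ONS-76 cells after knockdown of the histone demethylase KDM1A. Members were all genes named alone by a probe set of the array whose symbol begins with a prefix of this gene family (NDUFA, NDUFB, NDUFC, NDUFS, NDUFV, UQCR, COX4I, COX5, COX6, COX7, COX8, ATP5F1, ATP5M or ATP5P) or is that of a complex II subunit. The rule uses names and no measured value. It found 89 of the 19775 genes on the array, read by 170 of 54613 probe sets. Of these 89, 75 encode subunits (33 of complex I, 3 of complex II, 6 of complex III, 16 of complex IV and 17 of complex V). The prefixes also took in 8 assembly factors of complex I, COX7A2L, 2 pseudogenes and 3 antisense or divergent transcripts. Only the nuclear share of the machinery is described, since the 13 subunits encoded by mitochondrial DNA are not analysed here.

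Oxidative phosphorylation is the main source of ATP in most human cells. Complexes I and II pass electrons from NADH and succinate to ubiquinone, complex III hands them to cytochrome c, and complex IV transfers them to oxygen, while complexes I, III and IV pump protons that drive ATP synthesis by complex V. Complex II differs from the others in being encoded by nuclear genes alone and in also serving the citric acid cycle as succinate dehydrogenase. KDM1A removes methyl groups from histone H3 and is known in fat cells as a repressor of genes of oxidative metabolism, which is why these genes are of interest after its loss.

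The cells came from ONS-76, an established line of human medulloblastoma, a childhood tumor of the cerebellum. The 3 siKDM1A arrays were made from cells transfected with a siRNA against KDM1A, and the 3 control arrays from mock-transfected cells, which received the transfection reagent and no siRNA. Each array came from a separate transfection and, per the labels, cells were taken 48 h later, while the study's text gives a later time for the arrays. The labels name the target KDM5A and also LSD1, an older name of KDM1A, and the study's text names KDM1A. The study's text gives 1 siRNA sequence against KDM1A. Effects of that sequence on other genes, and of carrying any siRNA, cannot be told apart from those of the knockdown. The data come from 1 cell line. KDM1A read 6.25, 6.34 and 6.31 on the siKDM1A arrays and 9.50, 9.57 and 9.49 on the control arrays, so the groups lay far apart. It was 9.33-fold lower (limma, adjusted p = 7.1e-07), whereas none of 5 KDM5A probe sets passed the test (the brightest differed by -0.27, adjusted p = 0.14). The nearest to the threshold differed by -0.39, with separate groups (adjusted p = 0.056). Values are log2 signals after robust multi-array averaging (RMA), a normalization that gives all arrays the same distribution of probe signals, and array medians ran from 5.09 to 5.16. Of 10 medulloblastoma and neural progenitor markers measured, 6 lay above the median of all probe sets (5.12), while ATOH1, OTX2, PAX6 and SYP lay below it. MAP2 was called higher (log2 fold change 1.12) and ZIC1 and ZIC2 lower (-0.39 and -0.40). The markers summed to 69.03 to 70.03 on the control arrays and 69.37 to 70.24 on the siKDM1A arrays. Among 11 markers of immune, endothelial, fibroblast and epithelial cells, PECAM1 was called higher (log2 fold change 0.35) and no other passed. Of these, 1 of 3 immune, 2 of 2 endothelial, 2 of 4 fibroblast and 1 of 2 epithelial markers lay above the same median. Lying above it thus does not tell the cell types apart. The part of these markers in the results was not tested.

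Most oxidative phosphorylation genes differed little between siKDM1A and control cells. None of the 89 genes was called higher, 1 was called lower (SDHC, a membrane anchor of complex II), and 88 did not pass the test (limma, Benjamini-Hochberg adjusted p under 0.05 over all probe sets). Over all genes, 3.45% were called higher and 5.46% lower, so the 1.12% of members called lower was below the background share. Without adjustment, 4 members (4.49%) had p under 0.05 with a positive difference and 6 (6.74%) with a negative one, against 9.75% and 14.4% of all genes. The one-way ANOVA of the study's methods, which uses each probe set's own spread, called 0 members higher and 2 lower (SDHA and COX5B), where it called 0.946% of all genes higher and 1.26% lower. By that test 20 members (22.5%) had an unadjusted p under 0.05, against 22.9% of all genes. The arrays of the groups did not overlap for 12 members with higher siKDM1A values, 13.5% of the members as of all genes (13.5%). They did not overlap for 18 members with lower siKDM1A values, or 20.2%, against a background of 18.1%.

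The direction was mixed: 43 members had a positive and 46 a negative log2 fold change, with a median of -0.0076 against 0.0069 over all genes. The middle of the distribution lay between -0.078 and 0.078 (quartiles). The median size of the log2 fold change was 0.078 for members and 0.12 for all genes, and its SD was 0.15 for members, 0.12 without SDHC, and 0.27 for all genes. Members were bright on the whole, with a median level of 11.3, and only COX7A1, COX8C and the pseudogene COX6A1P1 lay below the median of all probe sets. The fit gave them a median standard error of 0.086, against 0.10 over all genes.

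These errors bound how large an undetected change could be. The 95% interval of the fold change stayed within 1.5-fold in both directions for 87 of 89 members, the exceptions being SDHC and NDUFAF5. Over all genes, 17038 of 19775 intervals (86.2%) lay within 1.5-fold. RMA removes most of a shift shared by all genes, so the differences are relative to the rest of the transcriptome, and in bulk RNA a smaller number of expressing cells and less RNA per cell cannot be told apart.

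**Figure D1:**
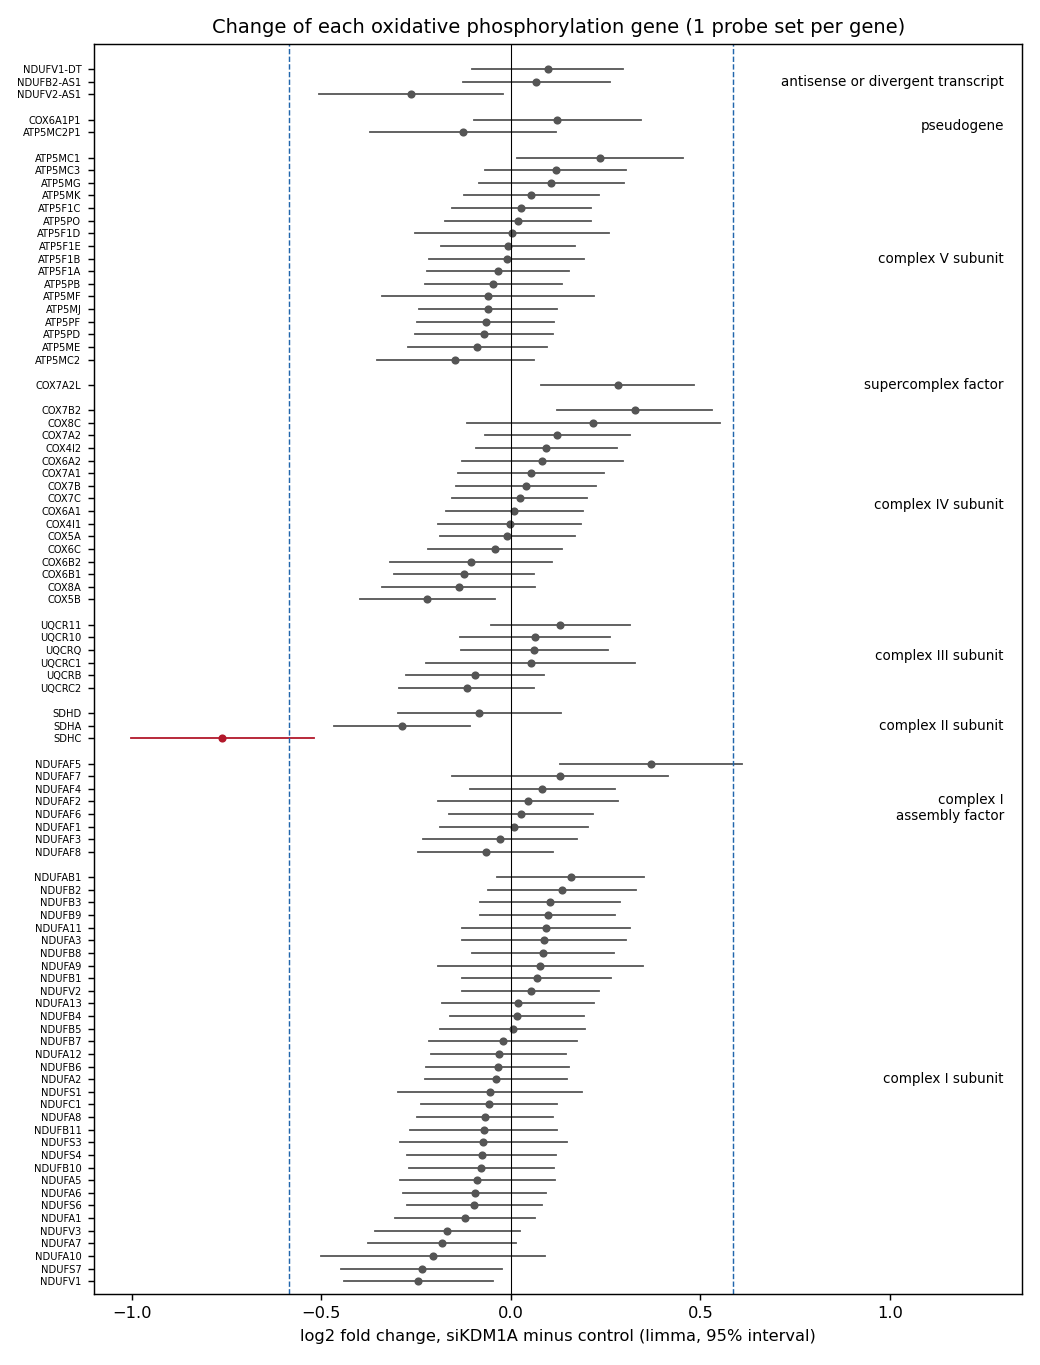
Log2 fold change (siKDM1A minus control, x axis) of each of the 89 genes on its brightest probe set, grouped by complex, with 95% intervals from limma; dashed lines mark 1.5-fold. SDHC, in red, is the only gene past the threshold, and only its interval and that of NDUFAF5 reach beyond 1.5-fold.

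In the limma fit, complex II was the only complex with a called member. Its 3 measured subunits, SDHA, SDHC and SDHD, all had negative differences, with a median of -0.29, which is the value of SDHA. SDHB, the remaining subunit of the complex, was named by no probe set and is not covered. SDHC carries, with SDHD, the heme and the ubiquinone site in the inner membrane. It read 9.56, 9.68 and 9.84 on the siKDM1A arrays and 10.39, 10.61 and 10.36 on the control arrays. Every siKDM1A array lay below every control array. SDHC was 1.69-fold lower (log2 fold change -0.76, SE 0.11, adjusted p = 0.0039), and 152 of 19775 genes (0.769%) had a log2 fold change as low or lower.

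SDHC is read by 7 probe sets, of which 6 were called lower, against 3.73% of all probe sets. Its brightest, 210131_x_at, and 202004_x_at gave nearly the same values, the latter with siKDM1A arrays at 9.53, 9.65 and 9.76 and control arrays at 10.31, 10.55 and 10.34 (log2 fold change -0.75, adjusted p = 0.0033). The largest difference came from 215088_s_at, with 9.03, 9.12 and 9.04 on the siKDM1A arrays against 9.96, 10.06 and 9.78 (log2 fold change -0.87, adjusted p = 0.0012). On 216591_s_at the siKDM1A arrays read 8.34, 8.89 and 9.02 and the control arrays 9.46, 9.77 and 9.47 (log2 fold change -0.82, adjusted p = 0.024). On these 4 probe sets the groups did not overlap, but their suffixes _x and _s mark sets whose probes may also match related sequences or several transcripts.

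The remaining 3 SDHC probe sets carry neither suffix. 238056_at read 6.07, 6.42 and 6.52 in siKDM1A cells and 6.96, 7.31 and 7.07 in control cells (log2 fold change -0.78, adjusted p = 0.011). 238191_at read 6.40, 6.49 and 6.46 against 7.05, 6.92 and 6.94 (log2 fold change -0.52, adjusted p = 0.0076). Both showed separate groups. 232107_at, the dimmest at 3.88 and below the median of all probe sets, overlapped between groups and did not pass (-0.25, adjusted p = 0.39). Under the ANOVA, which called 0.734% of all probe sets lower, 2 of the 7 passed and the brightest did not (adjusted p = 0.087). The call on 216591_s_at was lost without control replicate a, b or c in turn (adjusted p up to 0.088), while the brightest set kept it under each omission (adjusted p 0.0065 to 0.019).

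**Figure D2:**
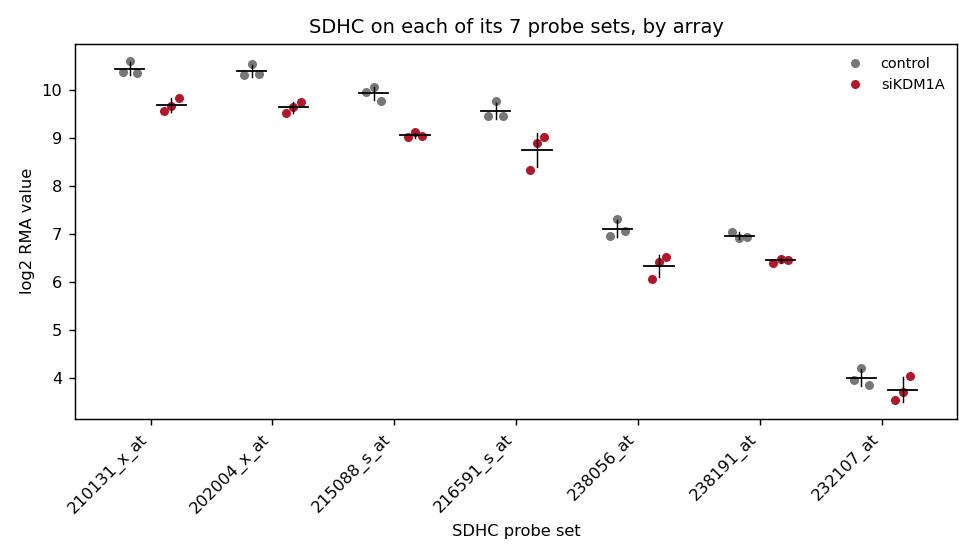
Log2 RMA values of SDHC (y axis) on each of its 7 probe sets, with 1 point per array, the mean (horizontal bar) and the SD (vertical bar) of each group of 3. On 6 probe sets the siKDM1A points lie wholly below the control points, and on 232107_at they overlap; heights are not comparable between probe sets.

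SDHA, the flavoprotein that oxidizes succinate, was close to the threshold. It read 10.63, 10.59 and 10.58 on the siKDM1A arrays and 10.88, 10.86 and 10.92 on the control arrays. The groups were separate and each was tight (SD 0.031 in both), with a log2 fold change of -0.29 (SE 0.080), yet the adjusted p was 0.073. This SE comes from limma, which pools spread over probe sets, and it lay near the smallest of any gene (0.078). It passed under the ANOVA (adjusted p = 0.041), with an intensity trend (0.013), among the brighter probe sets alone (0.033) and with probe sets averaged per gene (0.026). SDHA has 1 probe set, so neither the filter nor the averaging changed its values. The features fitted beside it differed, and these enter both the variance that limma pools over features and the adjustment. It missed the threshold whichever array was left out (adjusted p 0.12 to 0.26). SDHA has pseudogenes of near-identical sequence, and its probe set carries the suffix _x. SDHD, the other membrane anchor, overlapped between groups (9.62, 9.74 and 9.50 against 9.72, 9.77 and 9.62) and differed by -0.083 (adjusted p = 0.71).

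The RefSeq promoter table (GRCh38.p14, 250 bases before to 50 after the start site) had a window for 75 of the 89 members, SDHA and SDHD among them. The SDHA window is shown because it held more matches to the letters of nuclear respiratory factor 1 (NRF1, an activator of respiratory genes) than the others printed here. The letters searched were GCGCA, any base, GCGC, on both strands. SDHA held 4 matches, in capitals, each 49 bases from the next, in this stretch of 176 bases that ends 1 base before the start site, at chr5:218144-218319 on the plus strand.
SDHA: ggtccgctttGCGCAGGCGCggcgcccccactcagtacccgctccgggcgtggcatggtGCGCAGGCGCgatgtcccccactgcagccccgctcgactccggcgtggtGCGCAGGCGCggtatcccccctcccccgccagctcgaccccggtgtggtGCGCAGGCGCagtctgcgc
SDHD held 1 match, at chr11:112086753-112086782 on the plus strand.
SDHD: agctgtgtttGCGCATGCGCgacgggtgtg

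In complex I, which oxidizes NADH, none of the 33 subunit genes passed the test (limma; without adjustment, 2 with negative differences had p under 0.05). Their median log2 fold change was -0.040, with 13 positive and 20 negative, and all 33 intervals lay within 1.5-fold. The groups did not overlap for 4 genes with higher and 8 with lower siKDM1A values, beside the backgrounds of 13.5% and 18.1% given above. The lowest difference was that of NDUFV1, the subunit that binds NADH and FMN. It read 10.62, 10.54 and 10.73 on the siKDM1A arrays and 10.84, 10.89 and 10.89 on the control arrays, without overlap (log2 fold change -0.24, SE 0.087, adjusted p = 0.16). NDUFS7, an iron-sulfur subunit of the arm that reaches ubiquinone, read 9.78, 9.71 and 9.97 against a control mean of 10.06, also without overlap (-0.24, adjusted p = 0.21). The highest difference was that of NDUFAB1, the mitochondrial acyl carrier protein, with 12.20, 12.22 and 12.35 against 12.08, 12.15 and 12.06 (0.16, adjusted p = 0.38).

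By name family, the 5 NDUFS genes all had negative differences, with a median of -0.077 and a range of -0.24 to -0.054, and the 3 NDUFV genes had a median of -0.17. NDUFV2, a partner of NDUFV1 in the NADH-oxidizing module, was at 0.052 and NDUFV3 at -0.17. The 5 catalytic core genes measured here (NDUFS1, NDUFS3, NDUFS7, NDUFV1 and NDUFV2) had a median of -0.073. Of the accessory subunits, the 13 NDUFA genes (NDUFAB1 included) had a median of -0.040 and the 11 NDUFB genes, which sit in the membrane arm, 0.017. The spread among the NDUFB genes was narrow, from -0.078 to 0.13. None of these families was tested as a group.

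The 8 NDUFAF genes encode factors that help assemble complex I and are not part of the finished complex. None passed (limma; 1 had an unadjusted p under 0.05), and their median was 0.035. NDUFAF5, which modifies NDUFS7 during assembly, had the highest log2 fold change of all 89 members. It read 9.63, 9.90 and 9.79 on the siKDM1A arrays and 9.27, 9.54 and 9.41 on the control arrays. The groups did not overlap, but the 3 values within each spread widely (log2 fold change 0.37, SE 0.11, adjusted p = 0.084). In both groups replicate a was the lowest and b the highest. With the replicate letter as a block in limma, the adjusted p was 0.057. NDUFAF5 passed after cyclic loess (0.037) and with an intensity trend (0.039), and under no other setting at that threshold, with an adjusted p of 0.23 under the ANOVA. Its probe set 222894_x_at was at 0.37 with separate groups (limma adjusted p = 0.062). The dim set 219524_s_at overlapped, at 0.031 (adjusted p = 0.90). The lowest difference was that of NDUFAF8, which read 11.54, 11.57 and 11.57 against 11.60, 11.66 and 11.61 (-0.067, adjusted p = 0.72).

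Complex III, the cytochrome bc1 complex, had 6 members, none of which passed (limma) or had an unadjusted p under 0.05. Their median was 0.057. UQCRC2, one of its core proteins, had the lowest difference, at 11.38, 11.37 and 11.36 against 11.44, 11.52 and 11.50 (log2 fold change -0.12, adjusted p = 0.49). UQCR11, a small subunit, had the highest difference, at 11.84, 11.75 and 11.83 against 11.70, 11.69 and 11.63 (0.13, adjusted p = 0.44). Both showed groups that did not overlap, at differences under 1.1-fold.

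**Figure D3:**
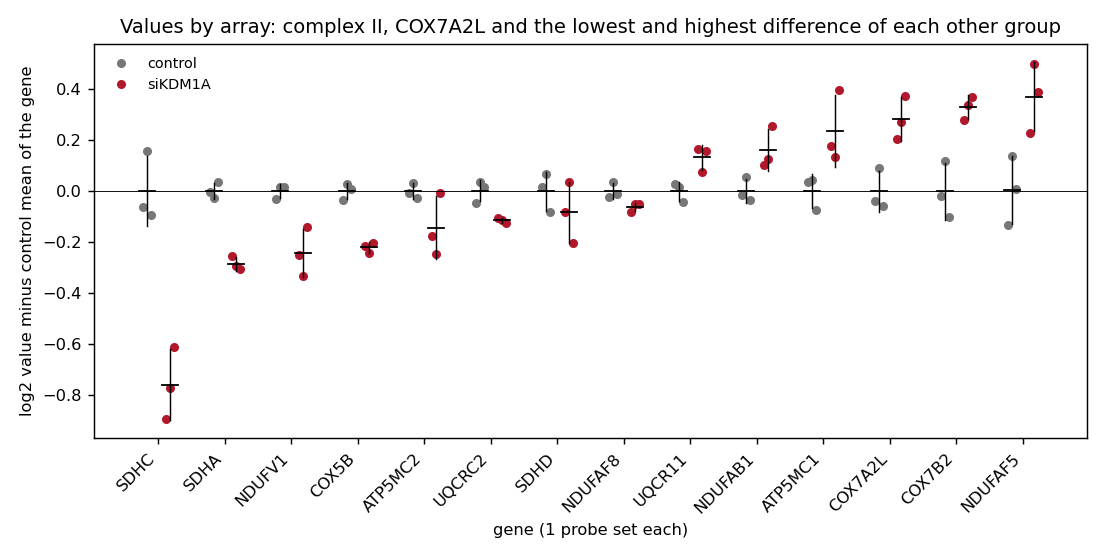
Log2 value on each array minus the control mean of the gene (y axis), for complex II, COX7A2L and the genes with the lowest and highest difference in each other group; horizontal bars are means and vertical bars SD of the 3 arrays. SDHC lies far below the rest, and the 3 siKDM1A points of SDHA fall together below the controls.

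Complex IV, cytochrome c oxidase, had 16 nuclear subunit genes, none of which passed (limma; 1 positive and 1 negative had an unadjusted p under 0.05), with a median of 0.016. The 10 general subunits were bright (11.6 to 12.9) and had a median of -0.0062. COX5B, a zinc-binding subunit, had the lowest difference, with siKDM1A arrays at 11.68, 11.65 and 11.69 and control arrays at 11.86, 11.92 and 11.90. The groups were tight and separate (log2 fold change -0.22, SE 0.079, adjusted p = 0.16). COX5B passed under the ANOVA (adjusted p = 0.048) and with an intensity trend (0.020) and under no other setting (0.21 after cyclic loess). Its probe sets 202343_x_at and 211025_x_at also had separate groups, at -0.21 and -0.25 (limma adjusted p = 0.20 and 0.13). On its dimmer set 213736_at the groups overlapped (-0.12, adjusted p = 0.74). COX5A, its neighbour in the complex, read 12.20, 12.20 and 12.16 against 12.20, 12.20 and 12.19, a difference of -0.0090.

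The 6 tissue-restricted isoforms of complex IV, known from muscle, lung or testis, lay between 3.04 and 5.68, near or below the median of all probe sets, and had a median difference of 0.088. COX7B2, a testis isoform, had the highest log2 fold change among them. It read 5.55, 5.61 and 5.64 on the siKDM1A arrays and 5.25, 5.39 and 5.17 on the control arrays, without overlap (log2 fold change 0.33, SE 0.091, adjusted p = 0.073). It passed among the brighter probe sets alone (0.039) and with probe sets averaged per gene (0.030). COX7B2 has 1 probe set, so neither setting changed its values. The features fitted beside it differed, which alters the pooled variance and the adjustment. COX7B, its general counterpart, was at 12.61, 12.57 and 12.59 against 12.59, 12.58 and 12.48, a difference of 0.040.

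In the other pairs neither isoform passed. COX4I1 differed by -0.0034 and the lung isoform COX4I2 by 0.094. COX6A1 was at 0.0089 and the muscle isoform COX6A2 at 0.082, while COX6B1 was at -0.12 and the testis isoform COX6B2 at -0.11. COX7A2 was at 0.12 and the muscle isoform COX7A1 at 0.053. COX8A was at -0.14 and COX8C, the dimmest member, at 0.22, with siKDM1A arrays at 3.21, 3.02 and 3.22 and control arrays at 2.62, 2.93 and 3.24. The COX8C groups overlapped and its standard error of 0.15 was the largest among members. No test compared an isoform with its partner.

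COX7A2L, related to COX7A2, links complexes III and IV in supercomplexes. It read 11.06, 11.13 and 11.23 on the siKDM1A arrays and 10.82, 10.95 and 10.80 on the control arrays. The groups did not overlap (log2 fold change 0.28, SE 0.090, adjusted p = 0.12). It passed with an intensity trend (0.029) and under no other setting at that threshold.

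Complex V, the ATP synthase, had 17 members and none passed (limma; 1 positive had an unadjusted p under 0.05), with a median of -0.011 and all 17 intervals within 1.5-fold. The 5 genes of the catalytic head and its central stalk (ATP5F1) lay between -0.035 and 0.028. ATP5F1B, the catalytic beta subunit, read 12.09, 12.24 and 12.24 against 12.12, 12.29 and 12.19, and ATP5F1E, the brightest member, read 12.97, 12.97 and 12.92 against 12.98, 12.95 and 12.95. These groups overlapped throughout. The 4 peripheral stalk genes (ATP5P) lay between -0.071 and 0.018.

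The 8 genes of the membrane part (ATP5M) had a median of -0.0028. Among them, 3 genes encode the same mature c subunit, which carries protons, and none of these passed. ATP5MC1 had the highest difference of the complex, with 11.26, 11.22 and 11.48 on the siKDM1A arrays against 11.12, 11.13 and 11.01, without overlap (log2 fold change 0.24, SE 0.097, adjusted p = 0.23). ATP5MC3 read 12.50, 12.55 and 12.61 against 12.42, 12.49 and 12.41 (0.12, adjusted p = 0.50). ATP5MC2 had the lowest difference, with 11.20, 11.13 and 11.37 against 11.37, 11.41 and 11.35, and its groups overlapped (-0.15, adjusted p = 0.45). ATP5MF was represented here by a dim probe set (5.33), which differed by -0.060.

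The 2 pseudogenes and 3 antisense or divergent transcripts did not pass either. COX6A1P1 differed by 0.12 and ATP5MC2P1 by -0.13. NDUFB2-AS1 was at 0.067 and NDUFV1-DT at 0.097. NDUFV2-AS1 read 5.30, 5.07 and 5.14 against 5.57, 5.47 and 5.26, with a difference of -0.26 (adjusted p = 0.22).

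Promoters of these genes are known to carry sites for a small set of activators, and the letters of 5 such sites were counted in the windows on both strands. NRF1 letters were found in 17 of 75 members (22.7%), against 6.98% of all 27305 genes with a window and 9.67% of the protein-coding ones. The letters CCGGAAG, read by ETS factors such as GABPA, were found in 21 members (28.0%), against 12.2% of all genes and 16.5% of the protein-coding ones. AAGATGGCG, read by YY1, was found in 9 members (12%), against 2.14% and 3.21%. TCAAGGTCA, read by ERR alpha, was found in SDHD alone (1.33%, against 0.432% and 0.335%). GGGCGG, read by SP1, was found in 47 members (62.7%), against 48.3% of all genes and 64.3% of the protein-coding ones. The member share for SP1 was thus near that of protein-coding genes. Any of the NRF1, ETS or YY1 letters stood in 40 members (53.3%), against 19.0% of all genes and 25.9% of the protein-coding ones. None of the 26 NRF1 matches overlapped the letters of another motif.

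The median log2 fold change was 0.028 with NRF1 letters and -0.032 without, -0.054 with and 0.012 without ETS letters, and -0.067 with and -0.0055 without YY1 letters. For the SP1 letters it was -0.046 with and 0.073 without, the widest gap among the motifs held by more than 1 member. These gaps were not tested. SDHC has no window in the table. The brightest holder of NRF1 letters in each of the other groups is shown, with NRF1 letters in capitals and 10 bases on each side, to show the sites beside the values above: NDUFB4 (chr3:120596167-120596196, plus strand, the first of 3 matches, log2 fold change 0.017), NDUFAF5 (chr20:13785014-13785043, plus strand), UQCR10 (chr22:29767351-29767380, plus strand, 0.063), COX8C (chr14:93347157-93347186, plus strand) and ATP5PO (chr21:33915809-33915838, minus strand, 0.018).
NDUFB4: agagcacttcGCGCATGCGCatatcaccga
NDUFAF5: agccgcgctgGCGCATGCGCacaaaaagcg
UQCR10: gtcggccccaGCGCAGGCGCggtggcgcga
COX8C: cgtggctgggGCGCCTGCGCaaaccagctg
ATP5PO: acgccaacgcGCGCGTGCGCccttgcgcgt
A match of letters is a description of the window and not a measured site.

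**Figure D4:**
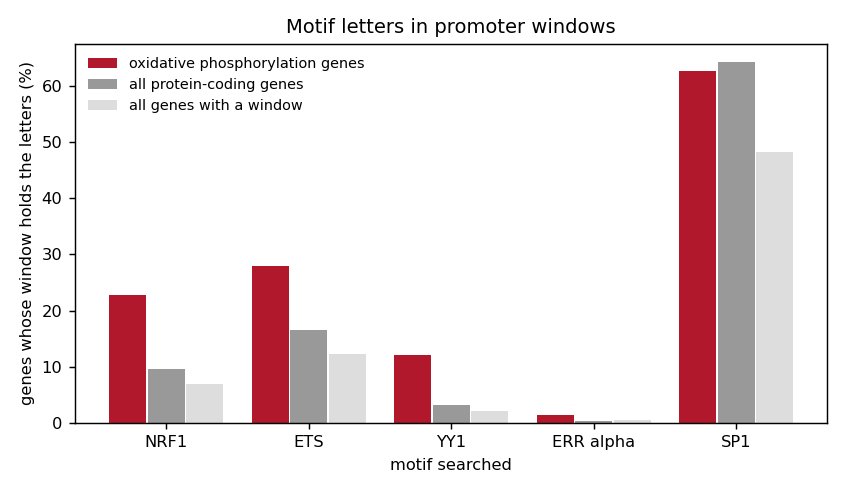
Share of genes (y axis, percent) whose promoter window holds the letters of each motif (x axis), for the 75 members with a window, all 15843 protein-coding genes and all 27305 genes. NRF1, ETS and YY1 letters stand in a larger share of the member windows than of either background, and SP1 letters in about the share of protein-coding genes.

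Other genes of mitochondrial energy metabolism were counted by list, beside the same backgrounds of 3.45% higher and 5.46% lower. None was called higher in any list (limma). Without adjustment, 0 to 4 genes per list had a positive difference with p under 0.05 and 1 to 7 a negative one. Over all genes these shares were 9.75% and 14.4%. Of 11 chain components outside the symbol rule, 1 fell: COQ9, which helps make ubiquinone, read 9.42, 9.60 and 9.76 on the siKDM1A arrays and 10.15, 10.19 and 10.22 on the control arrays (log2 fold change -0.59, adjusted p = 0.010). Its call was lost without control replicate c (adjusted p = 0.057) and under the ANOVA (0.10), and its dimmer probe set was at -0.031 (0.91). CYCS and CYC1, the genes of cytochrome c and cytochrome c1, were at 0.069 and -0.054 and did not pass. Of 40 assembly factors, 1 fell: ACAD9, which takes part in complex I assembly, read 8.32, 8.21 and 8.25 against 8.64, 8.66 and 8.67 (-0.40, adjusted p = 0.021), and lost its call in 4 of 6 omissions of an array (adjusted p up to 0.10). ACAD9 passed under the ANOVA (adjusted p = 0.036). The dimmer ACAD9 probe set was at -0.011 (limma adjusted p = 0.97).

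Of 22 regulators of respiratory genes and mitochondrial DNA, 2 fell, with a list median of -0.10. Without adjustment, 7 had a negative and 1 a positive difference with p under 0.05 (limma). The groups did not overlap for 9 with lower and 2 with higher siKDM1A values, against 18.1% and 13.5% of all genes. The list was not tested as a group. GABPB2, a partner of the ETS factor GABPA, read 5.55, 5.60 and 6.14 against 6.59, 6.58 and 6.47 (-0.78, adjusted p = 0.016). SP1 read 8.80, 8.79 and 8.75 against 9.43, 9.12 and 9.14 (-0.45, adjusted p = 0.034). Neither call was firm, since that of GABPB2 was lost in 5 of 6 omissions of an array (adjusted p up to 0.059) and that of SP1 in all 6 (adjusted p 0.064 to 0.10), and neither passed under the ANOVA (0.18 and 0.16). The other 3 SP1 probe sets, none called, were at -0.32, -0.30 and -0.026. GABPA itself was at -0.41 (adjusted p = 0.13), NRF1 at -0.26 (0.14), ESRRA at 0.051 (0.85) and TFAM, which packages mitochondrial DNA, at -0.016 (0.97).

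PPARGC1A, a coactivator of respiratory genes, read 4.74, 4.71 and 5.00 on the siKDM1A arrays and 4.33, 4.32 and 4.65 on the control arrays, both groups below the median of all probe sets (log2 fold change 0.38, adjusted p = 0.12). The groups did not overlap (limma unadjusted p = 0.011), and its dimmer probe set was at 0.13 (adjusted p = 0.62). PPARGC1A belongs to 4 genes listed as repressed by KDM1A in fat cells, of which none was called higher. Of these 4, 3 had a positive and 1 a negative difference, with a median of 0.15. SLC27A1, a fatty acid transporter, was at 0.27 (adjusted p = 0.29), and PNPLA2, a fat lipase, at 0.022. PDK4, a kinase that shuts pyruvate dehydrogenase, fell: it read 6.27, 6.34 and 6.31 against 6.80, 6.77 and 6.86 (-0.50, adjusted p = 0.0074). The call on this set held under each omission of an array and under the ANOVA (adjusted p = 0.029). The 2 dimmer PDK4 probe sets gave 0.23 (limma adjusted p = 0.22) and -0.12 (0.64), so the sets of PDK4 disagree in direction.

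Of 24 genes of pyruvate entry and the citric acid cycle, PDK4 and IDH2 fell. IDH2, the mitochondrial NADP-dependent isocitrate dehydrogenase, read 7.65, 7.67 and 7.97 against 8.26, 8.36 and 8.35 (-0.56, adjusted p = 0.015), and its other probe set was also lower (-0.48, adjusted p = 0.010). The call of its brightest set was lost in 4 of 6 omissions of an array (adjusted p up to 0.074) and under the ANOVA (0.12), where the other set passed (0.039). Of 16 fatty acid oxidation genes, 1 fell: ACAA2, a thiolase, read 8.06, 8.30 and 8.35 against 8.59, 8.84 and 8.64 (-0.45, adjusted p = 0.044). It lost its call in 5 of 6 omissions (adjusted p up to 0.16) and under the ANOVA (0.19). The other ACAA2 probe sets, neither called, were at 0.23 and -0.15, so the sets disagree in direction. The list median was -0.16. Without adjustment, 6 of the 16 had a negative and 0 a positive difference with p under 0.05 (limma). The groups did not overlap for 7 with lower and 0 with higher siKDM1A values, against 18.1% and 13.5% of all genes. This list was not tested as a group either.

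Of 77 mitochondrial ribosome genes, which serve translation of the mitochondrially encoded subunits, 2 fell. MRPS9 read 8.75, 8.75 and 8.69 on the siKDM1A arrays and 9.23, 9.27 and 9.33 on the control arrays (log2 fold change -0.54, adjusted p = 0.0050). MRPL47 read 10.86, 10.93 and 10.81 against 11.37, 11.41 and 11.40 (-0.53, adjusted p = 0.0061). On these sets the groups were tight and separate, and both calls held under each omission of an array. Both also passed under the ANOVA (adjusted p = 0.029 and 0.032). The other, dimmer MRPL47 probe set was at 0.11 and did not pass (adjusted p = 0.71). Over the list the median was -0.022. None of 23 mitochondrial protein import genes passed (limma; without adjustment, 3 positive and 2 negative had p under 0.05), with a median of 0.011.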

How the data were processed

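Total RNA from 3 siKDM1A and 3 control cultures of ONS-76 cells was hybridised to Affymetrix U133 Plus arrays. The authors applied RMA in the Partek software (version: not given in the sources used here). The deposited log2 values were used as given. No raw scans were used, so the background correction and the probe summary were not varied, no detection call was made, and no read depth applies; the number of arrays limits the precision.

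The log2 values were tested with limma 3.58.1 in R 4.3.3 (lmFit and eBayes, two-sided), siKDM1A against control without covariates, with Benjamini-Hochberg adjustment over 54613 probe sets (62 control sets left out) and a threshold of 0.05. Arrays were grouped by their treatment label. Gene names came from the annotation of the platform: 41091 probe sets name 1 gene, 1801 several and 11721 none. Each gene was represented by the probe set with the highest mean, and levels served to choose probe sets and place them in the signal range; since probes differ in affinity, they do not rank genes by abundance. The script was tested on simulated data. Members, lists and roles were chosen with earlier results of these data known, so lists are described by counts and medians alone. Named were called members, the lowest and highest of each complex, isoform pairs, members whose probe sets disagreed in call, the brightest and dimmest member, up to 4 called genes of each list, KDM1A and KDM5A; the others were chosen with their values seen. The alternatives were another centring, loess, a filter on dim sets, the replicate letters as a block, an intensity trend in the robust prior, the methods' ANOVA, other probe set rules, subunits alone, other thresholds and each array left out.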

Additional observations from a re-analysis of the deposited data

How the results depend on the processing

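SDHC was called under each setting tried except the ANOVA (adjusted p = 0.087), and no other member was called as often; it had log2 fold changes from -0.83 to -0.68; its dim probe set 232107_at, an alternative added after the data were seen, gave -0.25 (adjusted p = 0.39). The number of members called higher was 1 after cyclic loess, 1 with probe sets at or above the median level, 1 with the mean of all probe sets, 2 with the intensity trend and 2 at an adjusted p under 0.10. The number called lower was 2 with the brighter probe sets, 3 with the trend, 2 under the ANOVA, 2 with the mean of probe sets and 2 at 0.10. The added calls were NDUFAF5, SDHA, COX5B, COX7A2L and COX7B2. The share of all genes called higher and lower was 5.78% and 10.6% among the brighter probe sets, 0.946% and 1.26% under the ANOVA, 1.75% and 1.89% at 0.01, 4.12% and 4.24% after cyclic loess, 4.27% and 7.004% with the trend, 4.02% and 6.10% with the mean of probe sets, 4.84% and 7.99% at 0.10, and 1.85% to 3.00% and 1.95% to 4.27% when an array was left out. The median over members was -0.036 after median centring and 0.018 without _x and _s probe sets. That of complex I was -0.0077 with the mean of probe sets and 0.0044 without _x and _s sets. That of complex IV was -0.012 after median centring, 0.0027 with the brighter sets, 0.030 with the mean of probe sets and -0.0046 to 0.030 with an array left out. That of complex III was -0.034 to 0.095 with an array left out, the lowest without siKDM1A replicate c. Medians this near 0 have no settled direction. The median over all probe sets was 0.014, and -0.014 after centring.

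With the replicate letter as a block, 0 members were called higher and 1 lower, again SDHC (adjusted p = 0.014). The same setting called 2.953% of all genes higher and 4.303% lower. Whether the letters pair the arrays was not settled. The deviations of same-lettered arrays correlated at 0.11, 0.23 and -0.14. Of the 6 arrays, 3 correlated best with their own letter.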

Other observations

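A further 10 probe sets name an oxidative phosphorylation gene together with other genes and were outside the rule. None passed the test (limma). The largest difference was that of 230077_at, which names SDHA and 3 of its pseudogenes: it read 5.59, 5.55 and 5.26 on the siKDM1A arrays and 6.00, 5.77 and 5.83 on the control arrays, without overlap (log2 fold change -0.40, adjusted p = 0.077). The 3 probe sets that name NDUFS8, an iron-sulfur subunit of complex I, with microRNA genes were at -0.17, -0.15 and -0.30 (adjusted p = 0.41, 0.41 and 0.30). The set of UQCRH, the hinge protein of complex III, shared with UQCRHL, was at 0.055. The bright set of ATP5MF, shared with a transcript named ARMC2-AS1, was at 0.043, beside -0.060 on the dim set that names it alone. The set that names NDUFS5 and RPL10 was at -0.023, and the brighter of the sets that name NDUFC2 and its readthrough transcript was at -0.014.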
